A study of Mus musculus with 5 samples.

Results

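Toll-like receptors (TLRs) and NAIP proteins are sensors of microbial products, and the 10 genes described here are Tlr1, Tlr2, Tlr4 and Tlr6, the 4 Naip genes Naip1, Naip2, Naip5 and Naip6, and the inflammasome genes Nlrc4 and Nlrp3. The last 2 encode neither a TLR nor a NAIP. They are described with the others because they act beside them. Members were taken by name, with earlier results of these data known. A peak counted for a member where its midpoint had a transcription start site (TSS) of that member as the nearest protein-coding TSS. By this rule 44 of the 14808 peaks in 4 lists belonged to the 10 members, which are 10 of 21911 protein-coding genes.

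The peaks were called from RXRα HT-ChIPmentation libraries of lung alveolar macrophages (AMs), which live in the airspace. In this method immunoprecipitated chromatin is tagged with sequencing adaptors on the beads by Tn5 transposase. WT A and WT G came from CD11cCre- Rxrabfl/fl mice, in which Rxra and Rxrb are floxed but no Cre is present. KO A and KO G came from CD11cCre+ Rxrabfl/fl mice, in which Cre under Cd11c control deletes both receptors in AMs and can act in other CD11c+ cells. The methods of the study give mice of 9 weeks on the C57BL/6J background, from which AMs were lavaged and sorted, and the labels do not say how many animals went into a library. The remaining sample, chromatin input of the genotype without Cre, was the control for peak calling. Peaks do not measure RNA, so neither the labelled cell type nor the deletion of Rxra and Rxrb could be checked on expression.

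TLRs span the membrane and recruit the adaptor MyD88, TRIF or both, which leads to NF-κB and interferon regulatory factor signalling. TLR2 pairs with TLR1 or TLR6 to bind bacterial lipopeptides, and TLR4 binds lipopolysaccharide with MD-2. NAIPs act inside the cell. NAIP5 and NAIP6 bind flagellin, NAIP1 and NAIP2 bind the needle and the inner rod of type III secretion systems, and each then assembles with NLRC4, while NLRP3 forms an inflammasome of its own that answers to membrane and ion stress. AMs meet inhaled particles and microbes first. RXRα is a nuclear receptor that binds DNA as a dimer, often with a partner such as PPARγ or LXR.

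In all, 83 peaks were called in KO A, 208 in KO G, 4751 in WT A and 9766 in WT G. Read totals are not in the lists, but the fold enrichment and p-value of a peak together fix a whole number of fragments at its summit, and this gave a derived depth relative to WT A of 0.572 for KO A, 0.750 for KO G and 0.209 for WT G. These depths rest on the shortest peak being the fragment length of the caller, and were not checked against read totals. By them the list with the most peaks, WT G, came from the shallowest library. Its peaks rested on a median of 8 derived fragments, while the median was 12 in KO G, 14 in KO A and 16 in WT A. Strength is given as −log10 q, the authors' false discovery value of a peak on a log scale, and is compared only within a list, because it moves with depth.

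The first question was how RXRα peaks at these genes differed between genotypes. Among the peaks of the members, 31 were from WT G and 11 from WT A, and 2 were from KO G and 0 from KO A. They made up 0.317%, 0.232%, 0.962% and 0% of those lists. The whole lists were also far shorter in the KO, so the difference below is not particular to the members. Both WT lists lay above both KO lists, without overlap, and the WT lists differed from each other by more than the KO lists did. The mean was 21 ± 14.1 (SD, n = 2) for WT against 1 ± 1.41 (SD, n = 2) for KO, a difference of 20 peaks. By a two-sided exact permutation test p was 0.333. With 2 libraries a genotype no smaller p exists, and 0.05 is out of reach. Leaving out WT G lowered the difference to 10 and leaving out WT A raised it to 30, so the WT libraries decide its size.

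Of the 10 members, 7 had a peak in WT A and 7 in WT G, where 10.4% and 16.6% of all protein-coding genes did. The same 7 members (Tlr2, Tlr4, Tlr6, Naip1, Naip2, Nlrc4 and Nlrp3) had at least 1 region with overlapping peaks of both WT lists, which 8.82% of all genes had. KO A had a peak at none of them (0.351% of all genes) and KO G at Tlr2 and Tlr4 (0.858% of all genes). Tlr1, Naip5 and Naip6 had no peak assigned to them in the 4 lists. Because the members were chosen with earlier results of these data known, their shares beside those of all genes are a description and not a test.

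**Figure D1:**
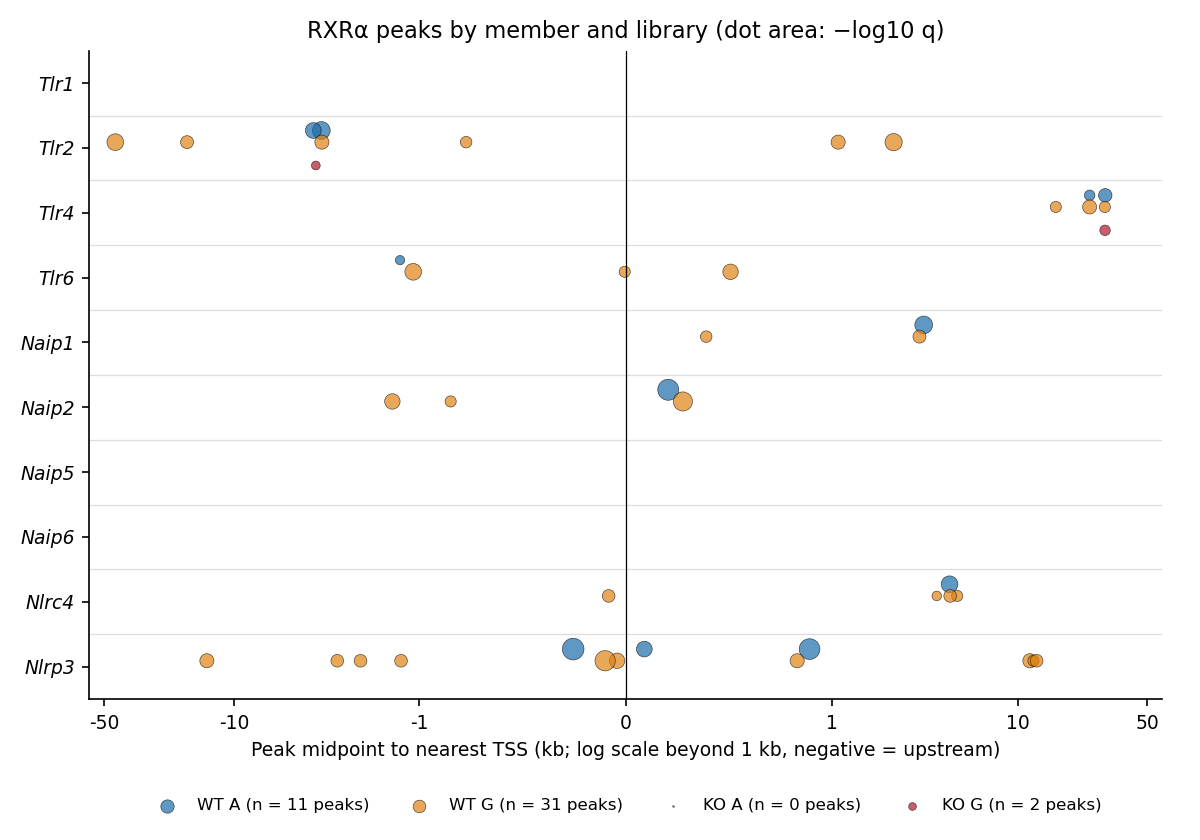
Position of each peak midpoint relative to the nearest TSS of the member (kb, linear within 1 kb and logarithmic beyond it) for the 10 members, coloured by library, with the dot area proportional to −log10 q. The 11 WT A peaks all have a WT G peak beside them. WT G adds others at every member that has a peak, most of them around Tlr2, Nlrc4 and Nlrp3. The 2 KO G peaks lie at Tlr2 and Tlr4.

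The stretches of genome for which a member TSS was the nearest made up 1.90 Mb, or 0.0698% of the genome, and held 0.232% of the WT A list and 0.317% of the WT G list. This was 5.79 peaks per Mb against 1.74 over the whole genome in WT A, and 16.3 against 3.58 in WT G. The choice of members with earlier results known may raise these densities, and its part was not tested. The 2 member peaks of KO G were 0.962% of that list, or 1.05 per Mb against 0.0763, and KO A had 0. The stretch of Tlr4 alone was 1275 kb long, and there the counts of 2 and 3 were close to the 2.22 and 4.57 that the genome-wide density would give. Nlrp3 was at the other end: its 33.1 kb held 3 and 10 peaks where that density would give 0.0578 and 0.119. For the members without a peak the same density would give few: 0.129 and 0.266 for Tlr1, 0.0998 and 0.205 for Naip5, and 0.175 and 0.361 for Naip6. Naip2, Nlrc4 and Tlr6 held peaks in stretches of 63.2, 52.4 and 18.3 kb. The stretches without a peak were 57.3 kb for Naip5, 74.2 kb for Tlr1 and 100.6 kb for Naip6. The part of stretch length in the lack of peaks was not tested.

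By their medians, and with no test run, member peaks also lay closer to a TSS than the lists as a whole. In WT A, 9 of 11 member peaks were within 5 kb of the TSS against 27.8% of all peaks, and in WT G 22 of 31 were against 36.1%. The median distance was 3.12 kb for members and 16.0 kb for all peaks in WT A, and 2.15 kb and 11.4 kb in WT G. The stretch of a gene bounds the distance its peaks can have. The stretches of Nlrp3 and Tlr6 were no longer than 33.1 kb, while that of Tlr4 was 1275 kb. The part of stretch length in these distances was not tested. Promoters, taken as 1 kb upstream to 100 bp downstream of a protein-coding TSS, held 2 of the 11 from WT A (18.2%, 95% exact Clopper-Pearson interval 2.28 to 51.8) and 6 of the 31 WT G peaks (19.4%, interval 7.45 to 37.5), beside 7.54% and 12.2% of all peaks, which lie inside those intervals. These intervals and those below cover counting error only.

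Of the membrane receptors, Tlr2 had the most peaks, with 6 in WT G, 2 in WT A, 1 in KO G and 0 in KO A. Its shared region was intergenic, at -3.36 kb from the TSS, at chr3:83844685-83845574 (mm10; Tlr2 is on the minus strand). A pair of WT A peaks stood there, at −log10 q 9.11 and 7.14 on 19 and 16 fragments, and WT G had a single wide peak of 877 bp that covered nearly all of both (−log10 q 5.73, 11 fragments). KO G had a peak of 102 bp in the same region, with a −log10 q of 2.24 on 9 fragments, which ranked 196th of the 208 KO G peaks. The KO G peak lay inside the WT G peak, but mostly between the pair of WT A peaks, of which it overlapped 1, by 11 bp. Its summit was 135 bp from the WT G summit. In width, 102 bp was the shortest of any KO G peak, which was taken, without a check, as the fragment length of the peak caller. The KO G peak is the only one called in the KO at Tlr2, so its sequence is shown, on the plus strand as for all sequences here. It held none of the motifs searched, and whether it marks RXRα binding was not tested.

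Tlr2 KO G peak, chr3:83845335-83845436: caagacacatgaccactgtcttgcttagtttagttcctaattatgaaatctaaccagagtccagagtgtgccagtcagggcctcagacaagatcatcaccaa

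The other 5 WT G peaks of Tlr2 had no counterpart in WT A. The strongest member peak by fragments in WT G was among them, 2.15 kb downstream of the TSS in the intron, with 16 fragments and a −log10 q of 8.57. The local background there was 2.58 times the genome-wide level, the highest of any member peak. The others were at 1.08 kb (5.73), at the promoter (3.87), and at -17.9 kb (4.84) and -43.5 kb (8.04).

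At Tlr4, all peaks of the 4 lists lay far inside the gene, in introns. There were 3 from WT G, 2 from WT A, 1 from KO G and 0 from KO A. The first shared region, at chr4:66851654-66852375 and 24.4 kb downstream of the TSS, was weak in WT A (−log10 q 3.20, with 94.4% of that list ranked as high or higher) and of middling rank in WT G (5.73, at 32.9%). Neither KO list had a peak there. The second, at chr4:66856993-66857437 and 29.6 kb downstream, reached 5.22 (WT A, 14 fragments), 3.61 (WT G, 7 fragments) and 3.16 (KO G, 10 fragments). The KO G peak was again 102 bp wide, lay whole inside the WT A peak and overlapped the WT G peak by 83 bp. Its summit was 91 bp from that of WT G and -45 bp from that of WT A, so the 3 summits lay within 136 bp of each other. In fragments over background it reached 10.7, above the 9.86 of WT A and below the 12.7 of WT G. Only a called KO G summit can enter here, and the lowest of that list reached 8.55. The values thus do not show how RXRα signal at Tlr4 changed with the deletion.

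The KO G peak of Tlr4 lies in the one member region in which an RXR-type repeat was found, so its sequence is shown with the matches in capitals. On the minus strand it reads AGGTCAAAAGTTGGTCC, which is a pair of AGGTCA with 5 bases between them and 2 mismatches, and another AGGTCA stands on the plus strand after it. The 7 letters TGANTCA of AP-1 occur on each side of them.

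Tlr4 KO G peak, chr4:66857125-66857226: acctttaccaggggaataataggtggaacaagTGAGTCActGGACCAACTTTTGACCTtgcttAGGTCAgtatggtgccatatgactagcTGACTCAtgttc

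Tlr6 lies next to Tlr1 on chromosome 5. Tlr1 had no peak, while Tlr6 had 3 from WT G, 1 from WT A and 0 from either KO library, within a stretch of only 18.3 kb. The shared region, at chr5:64960739-64961517 at -1.08 kb from the Tlr6 TSS, was among the weakest of WT A (−log10 q 2.50, 13 fragments, rank 4668 of 4751) and among the stronger of WT G (8.04, 11 fragments, rank 1636 of 9766). It is the member region on which the WT lists differed most in rank. The WT A summit lay 253 bp from that of WT G, the widest gap of the 10 shared regions. WT G had 2 more peaks, at the TSS itself (-5 bp, −log10 q 3.61) and 508 bp downstream (6.88). The sequence within 50 bp of the WT G summit is shown because it held a match to RUNX (TGTGGTT, on the minus strand) directly followed by 1 to AP-1.

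Tlr6 summit window, chr5:64961078-64961178: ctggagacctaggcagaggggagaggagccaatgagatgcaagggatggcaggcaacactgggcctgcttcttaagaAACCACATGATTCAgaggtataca

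The 4 Naip genes stand in a row of near copies on chromosome 13, all on the minus strand. Naip2, whose product senses the inner rod protein, had the strongest shared region of them, at chr13:100201444-100201924, in the intron 0.28 kb downstream of a TSS. In WT A its −log10 q was 12.7 (23 fragments, within the strongest 13.4% of that list) and in WT G 10.5 (14 fragments, within the strongest 12.0%), and neither KO list had a peak. WT G had 2 more peaks upstream of the TSS, at -0.849 kb (3.61) and -1.40 kb (6.88). At Naip1, whose product senses the needle protein, the shared region lay at chr13:100449485-100450218 in an intron, with its midpoint 3.01 kb downstream of an annotated start and the WT A summit at -3069 bp from another. The WT A peak had 9.11 and the WT G peak 4.84, and no KO peak was called. A second WT G peak stood 0.39 kb downstream of the TSS (3.87). The windows around the WT A summits of both genes are shown because each held a single AGGTCA, in capitals. A run of CA repeats fills the first part of the Naip2 window.

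Naip2 summit window, chr13:100201747-100201847: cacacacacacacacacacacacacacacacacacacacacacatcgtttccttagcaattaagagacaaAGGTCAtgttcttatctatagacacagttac
Naip1 summit window, chr13:100449530-100449630: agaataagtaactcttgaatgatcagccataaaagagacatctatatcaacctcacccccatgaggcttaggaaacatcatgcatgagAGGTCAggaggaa

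Naip5 and Naip6, the flagellin sensors, had no peak in any list. The authors kept only reads that map with high quality, and reads from near-identical copies can be lost in that step, so the sequence around each member was searched for words that occur again within 1 Mb. Of the 50-base words, 47.8% did so around Naip5 and 31.4% around Naip6, against 13.0% around Naip1, 8.39% around Naip2, and 0.411% around Nlrp3. The 2 Naip genes without peaks were thus those with the most repeated sequence, and the part of this in their lack of peaks was not tested. Tlr1, the third member without a peak, had 8.27% repeated words, close to Naip2.

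**Figure D2:**
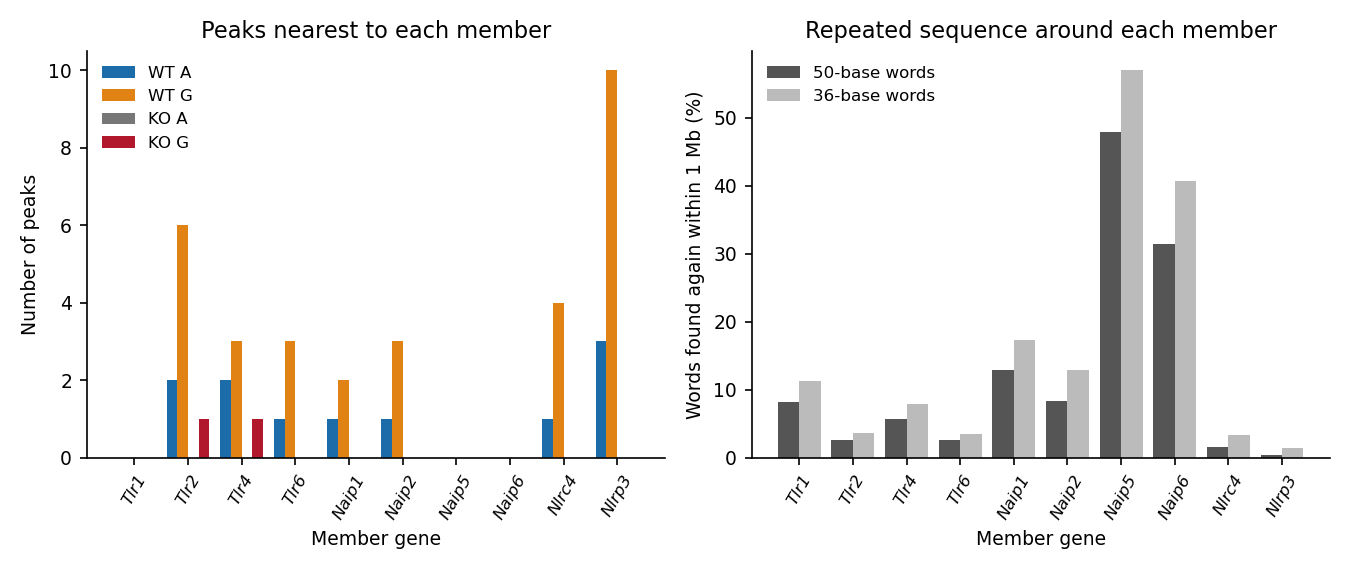
Left, the number of peaks nearest to each of the 10 members in each library. Right, the percent of 50-base and 36-base words around each member that occur again within 1 Mb on either strand. Naip5 and Naip6 have 0 peaks and the tallest bars for repeated words, 47.8% and 31.4% at 50 bases, while Tlr1 has 0 peaks and 8.27%.

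Nlrc4, the shared partner of the NAIPs, had 4 peaks from WT G, 1 from WT A and none from either KO library. The shared region was in the intron 4.33 kb downstream of the TSS at chr17:74454668-74454954, where WT A reached a −log10 q of 8.06 on 17 fragments and WT G 4.64 on 8. The summits of the 2 lists were 6 bp apart, the closest of all the shared regions. A pair of weaker WT G peaks flanked it (3.61 and 2.63), and another covered the promoter, at -83 bp (4.64).

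Nlrp3 was the member with the most peaks and the strongest. WT G gave 10 and WT A 3, and the KO libraries gave none. Each of the 3 WT A peaks overlapped a WT G peak. The first shared region covered the first annotated start (chr11:59541075-59541976), where the WT A peak had a −log10 q of 7.14 and the WT G peak 6.88. The next covered the second annotated start (chr11:59542148-59543024), where WT A reached 13.5 on 23 fragments and WT G 11.8 on 14, which placed it within the strongest 11.1% and 6.84% of the 2 lists. The last lay in the intron 0.84 kb downstream (chr11:59543277-59543773), with 12.4 and 5.73. All 3 thus lay at the start of the gene. The 7 further WT G peaks were 4 upstream, from -14.0 to -1.26 kb, and 3 in an intron between 11.6 and 12.6 kb, with −log10 q between 3.61 and 5.87. The window around the strongest summit of any member is shown, and it held none of the motifs searched.

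Nlrp3 summit window, chr11:59542583-59542683: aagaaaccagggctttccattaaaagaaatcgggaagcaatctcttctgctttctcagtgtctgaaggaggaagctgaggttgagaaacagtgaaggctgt

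Compared over the 4 lists by the highest −log10 q of a gene in each (0 where there was none), the genes most like Nlrp3 were Bloc1s3, Clec12a and Ctnnb1, at a distance of 0. They were 3 of 11 genes at that distance, taken in alphabetical order. Values repeat because they rest on small whole numbers of fragments. Those most like Naip2 were Eif3j2, Gm11084 and Mgat4b, of 6 genes at a distance of 0.332.

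The question of whether the replicate lists shared the same sites at the members was read from overlap. All 11 WT A peaks overlapped a WT G peak by at least 1 bp (100%, interval 71.5 to 100), where 83.2% of all WT A peaks did. Of the 31 WT G peaks, 10 overlapped a WT A peak (32.3%, interval 16.7 to 51.4), where 36.1% of all WT G peaks did. In neither list did the members differ from the list as a whole by more than counting error. The 21 WT G peaks alone had a median −log10 q of 4.64, the same as all WT G peaks alone, and 4 of them were at promoters (Tlr2, Tlr6, Naip2 and Nlrc4), none of which had a WT A peak there. The 10 shared regions had summits 6 to 253 bp apart with a median of 156.5 bp, against a median of 97 bp over all 3423 regions in both WT lists. With an overlap of at least 50% of both peaks, the shared member peaks fell to 45.5% of WT A and 16.1% of WT G, and the shared regions to 5.

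In strength the member peaks stood near the middle of their lists. The median −log10 q was 8.06 for members and 7.14 for all peaks in WT A, and 4.84 and 4.64 in WT G. The highest member values of 13.5 and 11.8 were far below the highest of each list, 54.5 in WT A and 96.2 in WT G.

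**Figure D3:**
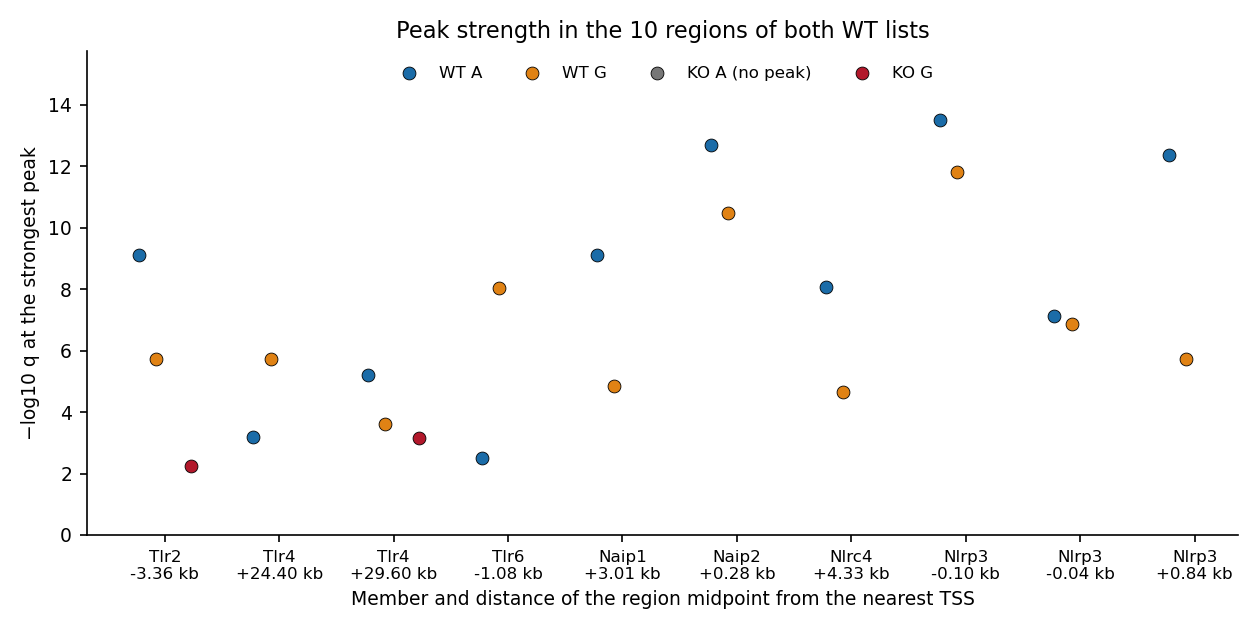
The −log10 q of the strongest peak in each of the 10 member regions found in both WT lists, by library, with the distance of the region from the nearest TSS. Within WT A the highest points are at Nlrp3 (13.5) and Naip2 (12.7) and the lowest at Tlr6 (2.50), and within WT G the highest are at Nlrp3 (11.8) and Naip2 (10.5) and the lowest at the Tlr4 region 29.6 kb from the TSS (3.61). KO G has points at Tlr2 (2.24) and Tlr4 (3.16), and KO A has none.

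Of the 10 shared member regions, 2 had a KO peak (20%, interval 2.52 to 55.6), both in KO G, while 5.87% of all shared regions had one in either KO list (interval 5.11 to 6.71). The overlap of these intervals leaves no difference that this number of regions could show. The count of 2 fell to 1 at a −log10 q of at least 3 or with WT G held to the number of WT A peaks. It was 0 with an overlap of at least 50% of both peaks. The regions with a KO peak were at Tlr2 and Tlr4. The 6 regions of Naip1, Naip2, Nlrc4 and Nlrp3 had none, which is close to the 5.87% of all shared regions. No difference between them and the TLR regions was tested. The lists hold only called peaks, so a missing KO peak is not a measurement of 0.

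The WT summits were also set beside the lowest summits called in the KO lists, in fragments. The 10 regions were kept because both WT lists called them, so their WT multiples are selected to be high, the fragments they give for the KO are too high on average, and nothing on the depth of the KO libraries is drawn from them. At the shared regions the summits reached 9.16 to 16.2 times the genome-wide background in WT A and 12.7 to 25.4 times in WT G. At such multiples KO A would hold a median of 12.2 fragments by WT A and 16.7 by WT G, and KO G 11.9 and 16.1. The lowest called summit had 10 fragments in KO A and 8 for KO G. By the WT A multiples 7 of the 10 regions would reach that number in KO A and all 10 would in the KO G library, and by the WT G multiples 10 of 10 would in both. The strongest regions, at Nlrp3 and Naip2, would hold 15.6 fragments in KO A by the WT A multiple. The 3 that fall short are Tlr6, with 8.85, and both Tlr4 regions, with 9.53 each.

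**Figure D4:**
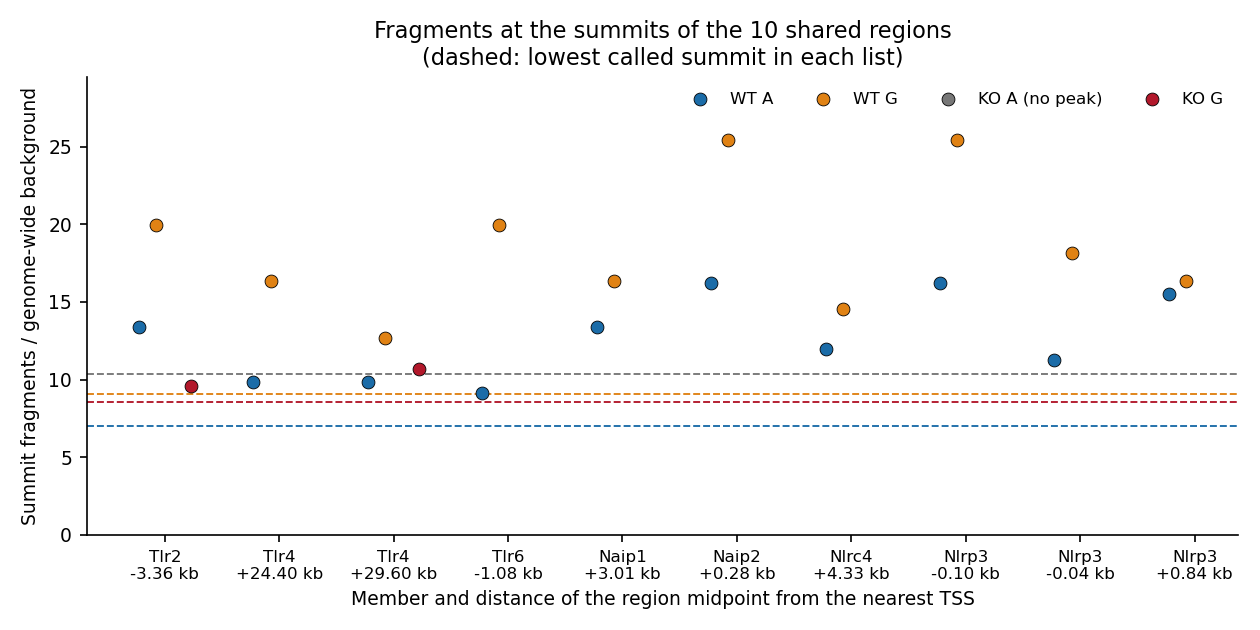
Fragments at the summit divided by the genome-wide background of the library in the 10 shared member regions. Dashed lines mark the lowest summit called in each list, 8.55 for KO G, 10.4 for KO A, 7.04 for WT A and 9.07 for WT G. The WT A points of Naip2 and of 2 of the 3 Nlrp3 regions are the highest of that list, at 15.5 to 16.2. That of the Nlrp3 region at the first start (11.3) stands just above the KO A line, while the WT A points of Tlr6 and of both Tlr4 regions lie below the KO A line.

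Motifs were searched on both strands within 50 bases of the summit of the strongest WT peak of each shared region. A pair of AGGTCA with 1, 4 or 5 bases between them and at most 2 mismatches, the arrangement bound by RXR dimers, was found in 1 of the 10 member regions (10%), the Tlr4 region 29.6 kb from the TSS with 5 bases between, and in 10.1% of all 3423 shared regions. With 1 base between, the spacing of RXR with PPARγ, it was in 0 member regions and in 6.34% of all. A single AGGTCA stood in 3 (Naip1, Naip2 and Tlr4) beside 15.3% of all, a search chosen after seeing the data. AP-1 (TGANTCA) was in 2 (Tlr4 and Tlr6) beside 7.51% of all, and RUNX (TGTGGTT) in 1 (Tlr6) beside 5.93%. PU.1 (GAGGAAGT, 4.38% of all), C/EBP (TTGCNNAA, 11.0%), STAT5 (TTCNNNGAA, 3.77%), the E-box (CACGTG, 1.81%) and NF-κB (2.31%) were in none of the 10. With 10 regions such counts say little. A match is a description of letters and not a bound site, and the absence of one says only that those letters are not in the window.

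Other genes of the same pathways were taken from 4 lists, also chosen with earlier results of these data known. Of 48 genes, 14 had a region that both WT lists shared (8.82% of all genes did), 18 had a WT G peak, 17 a WT A peak, 1 a KO G peak and 0 a KO A peak. Of the 8 other TLR genes, 2 had such a region (Tlr5, a flagellin receptor, and Tlr13, a receptor for bacterial ribosomal RNA), Tlr7 had a WT G peak alone (5.73), and 5 had no peak. Of 9 co-receptors and chaperones, 4 had one: Cd14, Cd36, Cd180 and Ly86. Of 15 adaptors and kinases, 2 did (Irak2 and Pik3ap1), and Myd88, Tirap, Ticam1, Irak1, Irak4 and Traf6 were among the 10 with no WT peak. Of 16 inflammasome partners and other sensors, 6 did (Il1b, Il18, Nlrp1b, Aim2, Nod1 and Nod2), while Pycard, Casp1 and Casp4 were the nearest gene to none, which does not exclude peaks around them that lie closer to another TSS.

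Values are given for the 5 genes with the highest −log10 q in a shared region, taking the higher of the WT lists, so the choice mixes lists of different depth. Cd36 was the highest in each WT list, a scavenger receptor that can serve TLR2 with TLR6, with a region in the intron 0.75 kb from its TSS that reached 26.4 by WT G, 23.3 by WT A and 4.15 by KO G. All members were lower in each WT list. Pik3ap1, an adaptor to PI3K, had 10.2 and 17.3 at a region 49.2 kb from its TSS, and Ly86, which encodes the partner MD-1 of CD180, had 8.06 and 13.2 at 138 kb. Cd14, the lipopolysaccharide co-receptor, had 5.22 and 11.8 at 13.3 kb. Il18, whose product is matured by caspase-1, had 10.2 and 10.5 in the intron 2.26 kb from its TSS, and Nod2, a sensor of muramyl dipeptide, had the same 10.5 in WT G. Pik3ap1, Ly86, Cd14 and Il18 had no KO peak.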

How the data were processed

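RXRα HT-ChIPmentation was measured in 4 ChIP libraries, WT A and WT G (no Cre) and KO A and KO G (Cre), grouped by the genotype and letter in the labels. The labels do not say whether letters mark separate animals, so the spread between libraries may be technical. Reads were trimmed with Cutadapt, aligned to mm10 with Bowtie2 and filtered with SAMtools, and peaks were called by the authors with MACS3 for each library against the input at q 0.05, without pooling. The deposited fold enrichment is the ratio of summit pileup to local background, with the same small constant added to each. The −log10 p and −log10 q refer to the summit, the deposited score is derived from −log10 q, and the last column gives the summit offset. The lists hold no counts, so no count model was used.

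With scipy 1.17.1, pandas 2.3.3, numpy 2.4.6 and pysam 0.24.0 under Python 3.11.15, peaks were assigned by midpoint to the nearest protein-coding TSS of GENCODE M21 (mm10), and lists overlapped where peaks shared at least 1 bp. Regions are merged WT peaks with both lists present. Fragments were solved from fold enrichment and −log10 p as a Poisson tail within 0.01, for every peak of the 4 lists, with the WT A pileup scaled by 0.884. Depth rests on the shortest peak being the fragment length of the caller, and was not checked against read totals. The fragment solution, but not the depth, was tested on simulated data. Peak numbers were compared by an exact permutation test. Sequences came from the RefSeq GRCm38.p6 genome, whose coordinates are those of mm10. All 10 members were named, with every shared region. Of the other pathway genes, all with a region in both WT lists were named and the 5 with the highest −log10 q in either WT list given values, and the 3 genes closest to each of the 2 strongest members were named. The members and lists were chosen with earlier results of these data known. The pathway lists are background knowledge. Alternatives were the threshold, the TSS set, the distance, the overlap, the list length, each library left out and the motif settings.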

Additional observations from a re-analysis of the deposited data

How the results depend on the processing

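Of 8 results, 53 alternative values were computed. Of these, 44 kept their direction or stayed within what was allowed, 9 moved further and none reversed. Counts were allowed 1.5 times and shares their exact binomial interval, which for repeated words is very narrow because each word counts. The difference in member peaks stayed above 0 in all, from 10 to 30 with 1 library left out. It was 12.5 with WT G held to the number of WT A peaks. As 1588 WT G peaks tie at that cut, the range was 12.5 to 15.5, chosen after seeing the data. Pairing the letters, as a replicate block, gave 20, the mean of 11 in A and 29 in G (exact permutation p = 0.5, the smallest possible), and with so few pairs it was not checked whether the letters pair the samples.

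With an overlap of at least 50% of both peaks, the shared member regions were 5 in place of 10, none had a KO peak (0), and 45.5% of WT A and 16.1% of WT G member peaks were shared. Regions with a KO peak were 1 at a −log10 q of at least 3 and 1 with WT G held to the number of WT A peaks, in place of 2. They ranged from 0 to 2 with 1 KO library left out, so KO G decides this count. With at most 1 mismatch no member region held the AGGTCA repeat (0, in place of 1). Repeated words around the Naip genes rose from 24.4% to 31.2% with 36-base words. The cause of these shifts was not tested, apart from the left-out library. Single member peaks rested on few fragments, and the derived depths were not checked, which limits what a missing peak can show.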

Other observations

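The RefSeq promoters (GRCm38.p6, 250 bases before to 50 after a start) of 9 members, 12 promoters in all, were searched for the same motifs. No AGGTCA pair with 1, 4 or 5 bases between was in any of the 12, beside 3.86%, 3.02% and 2.79% of all 32851 promoters. Tlr1, the TLR with no peak, held PU.1, STAT5 and E-box letters, which were in 3.20%, 8.30% and 7.15% of all promoters. Tlr6 held C/EBP (10.8% of all), RUNX (5.27%) and STAT5, and Nlrc4 held C/EBP and RUNX. The NF-κB consensus was in promoters of Naip5, Nlrp3 and Tlr2, beside 8.46% of all. Naip6 held RUNX. Each is a match of letters and not a bound site.

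Over the whole of the shared regions, a search chosen after seeing the data, the AGGTCA pair was still in 1 of the 10 member regions (10%) beside 35.0% of all shared regions, and a single AGGTCA in 4 (Naip1, Naip2, Tlr4 and Tlr6) beside 50.5%. AP-1 was in 4 (Nlrp3, Tlr2, Tlr4 and Tlr6) beside 30.2%, and C/EBP in 3 beside 42.2%. RUNX was in 3 (Naip1, Tlr2 and Tlr6) beside 24.6%, and PU.1 in 2 (Tlr4 and Tlr6) beside 16.1%. NF-κB was in 2 (Nlrp3 and Tlr2) beside 12.4%. STAT5 was in 1 (Tlr6) beside 21.9%, and the E-box in 1 (Nlrp3) beside 11.4%. The C/EBP letters TTGCACAA stood in both strands of 1 Nlrp3 region and in the Naip1 region. Median widths were 728 bp (members) and 574 bp (all shared regions).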
